A study of Mus musculus with 7 samples.

Results

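The 10 genes described here encode the peroxiredoxins (Prdx1 to Prdx6), the superoxide dismutases (Sod1 to Sod3) and catalase (Cat). They were chosen by symbol from the 26607 genes listed for each library, and all 10 symbols were found. C2C12 cells are mouse myoblasts kept as a line, and they form myotubes by fusion once serum is lowered. RNA-seq was performed on myotubes that received no stimulation (control, 3 libraries, numbered 1, 3 and 4) and on myotubes that received electrical pulse stimulation (EPS, 4 libraries, numbered 1 to 4). EPS imitates contraction. It was started 3 days after differentiation, ran for 24 h at 1 Hz and was followed by 1 h of rest. The sources do not state whether each library came from a separate culture, so the tests measure the spread between these libraries.

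Superoxide dismutases convert superoxide, a by-product of respiration and of oxidase enzymes, into hydrogen peroxide and oxygen. Peroxiredoxins and catalase then remove the peroxide. Peroxiredoxins use a reactive cysteine that thioredoxin (or, for Prdx6, glutathione) reduces again, whereas catalase needs no reducing partner and works mainly in peroxisomes. The enzymes are spread over the cell: Prdx1, Prdx2 and Prdx6 are mainly cytosolic, Prdx3 and Sod2 are mitochondrial, Prdx4 lies in the secretory pathway, Prdx5 in several compartments, Sod1 mainly in the cytosol and Sod3 outside the cell. Contracting muscle makes more of these oxidants than resting muscle, and the transcription factor NRF2 (Nfe2l2) is a known regulator of many antioxidant genes.

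Values are CPM, a gene's reads scaled to the read total of its library. Recovered totals were between 16616917 and 22120641 reads in the control group and between 18830229 and 21892568 in the EPS group. All members were far above the limit of 3 reads, which was at most 0.181 CPM in any library. Control replicate 4 stood apart: 359 genes had 1 to 5 reads in it, against 2670 to 3181 in the other libraries. Of the marker lists, the summed level of 10 myotube genes was 10824 to 15641 CPM in the control and 8834 to 12030 CPM in the EPS group. Their median log2 fold change was -0.45, and 2 of the 10 genes were above 0. In limma 0 of the 10 passed P under 0.01 or P under 0.05 in either direction. At P under 0.01, 2 were lower in edgeR and 2 in DESeq2. At P under 0.05, for which no share over all genes is given, 3 were lower in edgeR and 4 in DESeq2. The summed level of 5 macrophage genes was at most 2.87 CPM and that of 4 adipocyte genes at most 0.14 CPM. The summed level of 5 fibroblast genes, which include collagens, was 4429 to 6158 CPM in the control and 3990 to 5220 CPM in the EPS group, and most of it was Col3a1 and Col1a1. None of these 5 passed P under 0.01 in limma, and 1 was lower at that threshold in both edgeR and DESeq2. At P under 0.05 in limma, Pdgfra was higher (log2 fold change, log2FC, of 0.70) and Lum lower (-0.89), and Dcn was at -0.89 without passing. The part of such cells in the members' levels was not tested.

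Of the 10 members, 3 rose in the EPS group, namely Prdx6, Sod1 and Cat, and 0 fell. Here a gene rose or fell if its P in limma on log2(CPM + 1) was under 0.01. The same 3 genes also changed by more than 2-fold. Over the 19144 genes tested, 2.83% passed P under 0.01 with a higher level in the EPS group, 1.34% passed with a lower level, and 0.966% passed with a higher level and more than 2-fold. No member had an adjusted p under 0.05 in limma, a threshold that 0.141% of all genes met there. In edgeR 2 members met it and in DESeq2 3, but the share over all genes is not given for these tools. Both called more genes than limma: at P under 0.01 in either direction, 927 genes passed in edgeR and 949 in DESeq2, against 798. With a higher level and more than 2-fold, the counts were 329 and 317, against 185. At an unadjusted P under 0.05, 3 members were higher and 0 were lower in limma, and 4 were higher and 0 lower in both edgeR and DESeq2. No share over all genes is given for P under 0.05, here or for the lists below. Counts at that threshold therefore do not show whether the members or lists differ from other genes. The median log2FC of the members was 0.36, against 0.04 over all genes tested and 0.10 over genes with a mean of at least 1 CPM.

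**Figure D1:**
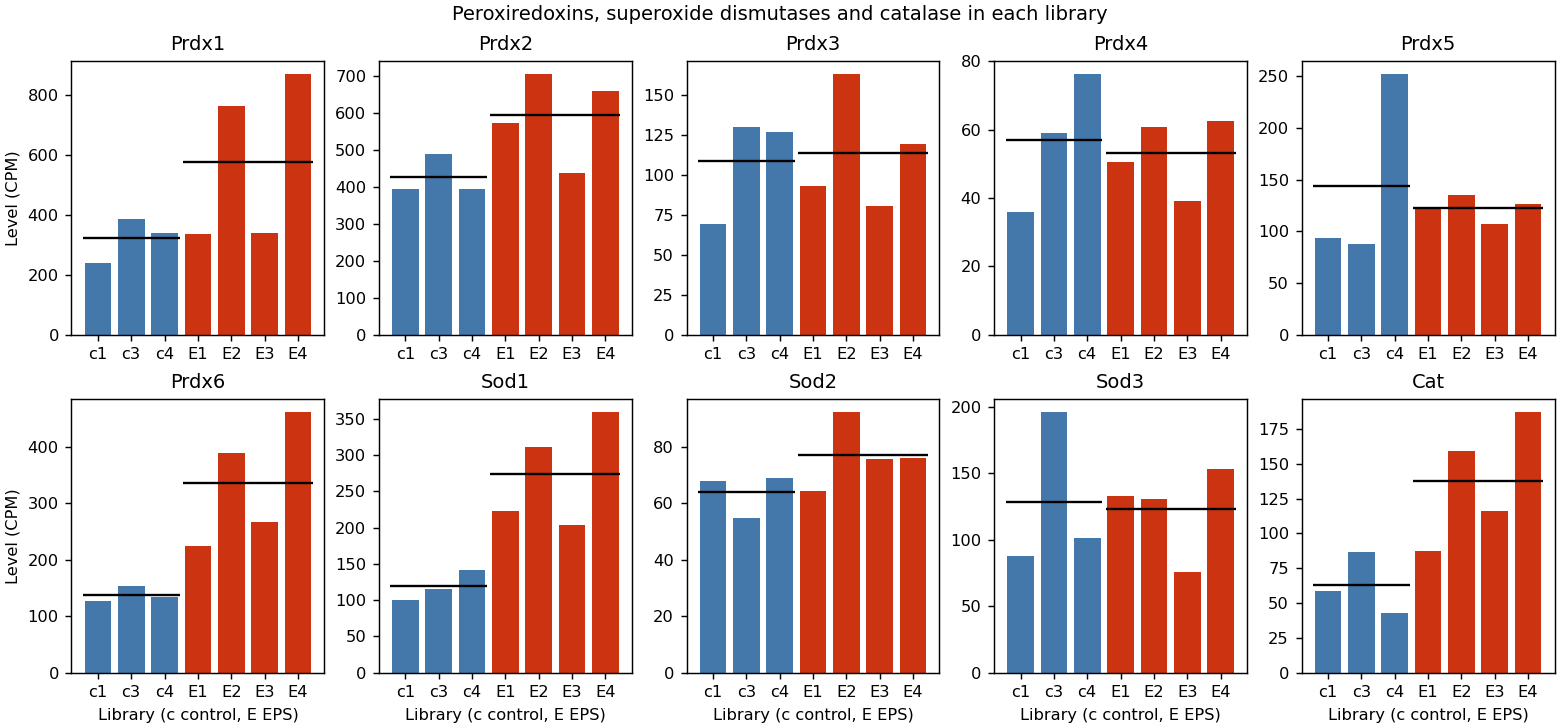
Level of each gene in CPM (vertical axes, each from 0) in control libraries c1, c3 and c4 (blue) and EPS libraries E1 to E4 (red), with black lines at the group means. Prdx6, Sod1 and Cat are the 3 panels whose red bars all exceed the blue bars, and Prdx5 has a single tall control bar at 252 CPM.

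Prdx6, a peroxiredoxin with 1 catalytic cysteine that also has phospholipase activity, had a log2FC close to those of Sod1 and Cat, and the order of the 3 changed with the libraries left out. In GRCm38 the gene (ENSMUSG00000026701.15) spans 161240112 to 161251219 of chromosome 1. It was at 127, 153 and 134 CPM in control replicates 1, 3 and 4, and at 224, 388, 266 and 461 CPM in EPS replicates 1 to 4. The groups did not meet, and the highest libraries were EPS replicates 4 and 2. Its mean was 138 ± 13.5 CPM (SD, n = 3) in the control group and rose to 335 ± 109 CPM (SD, n = 4) with EPS, at a log2FC of 1.22 (standard error 0.25, limma adjusted p = 0.107). The exact permutation test gave p = 0.0286, the smallest that 3 libraries against 4 allow. Leaving out single libraries gave 1.04 to 1.39, lowest without EPS replicate 4. The related gene Prdx6b had 1 read in EPS replicate 3 and 0 in the other libraries.

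Sod1, the copper and zinc enzyme of the cytosol (ENSMUSG00000022982.10, chromosome 16, 90220754 to 90226329), had the lowest P of the 10 genes in limma, while Prdx6 had the lowest in edgeR and DESeq2. It was at 100, 116 and 142 CPM in the control libraries, and at 223, 311, 204 and 359 CPM in EPS replicates 1 to 4. The groups did not overlap, and the lowest EPS library was replicate 3. Its mean was 119 ± 21.1 CPM (SD, n = 3) in the control group and rose to 274 ± 73.2 CPM (SD, n = 4) with EPS, at a log2FC of 1.17 (standard error 0.23, limma adjusted p = 0.0968). The exact permutation p was 0.0286, again the smallest possible. Leaving out single libraries gave 1.03 to 1.3.

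Cat, which breaks down hydrogen peroxide in peroxisomes (ENSMUSG00000027187.10, chromosome 2, 103453849 to 103485160), was at 58.9, 86.7 and 42.5 CPM in the control libraries and at 87.6, 159, 116 and 187 CPM in EPS replicates 1 to 4. The groups did not overlap on the deposited scale, but control replicate 3 and EPS replicate 1 nearly met, and they did overlap after quantile normalization or median-of-ratios scaling. The mean was 62.7 ± 22.3 CPM (SD, n = 3) in the control group and rose to 137 ± 44.4 CPM (SD, n = 4) with EPS, at a log2FC of 1.12 (standard error 0.31, limma adjusted p = 0.200, exact permutation p = 0.0571). Of the 3 genes, Cat was the least stable: it missed P under 0.01 without control replicate 1 (1.10), control replicate 4 (0.87), EPS replicate 2 (1.03) or EPS replicate 4 (0.95), and with the replicate number as a block (1.03).

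Over all genes tested, 7.76% had the whole EPS group above the control range and 2.85% had it below. Among the members the counts were 3 and 0.

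**Figure D2:**
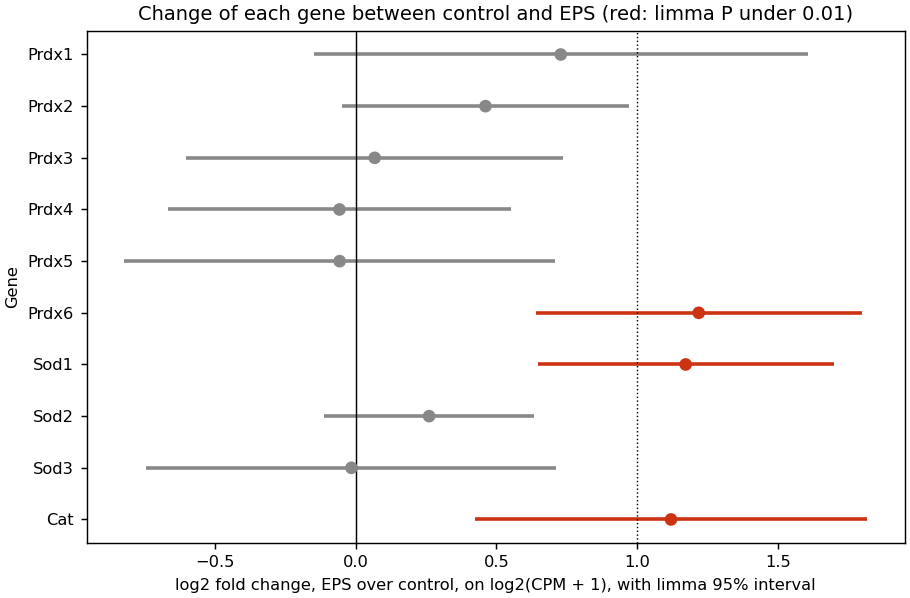
Log2 fold change of each gene on the log2(CPM + 1) scale (horizontal axis) with its 95% interval from limma, where the solid line marks no change and the dotted line 2-fold. The intervals of Prdx6, Sod1 and Cat lie above 0, with lower ends at 0.64, 0.65 and 0.42, and the other 7 span 0.

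The other cytosolic peroxiredoxins were higher on average, but their groups overlapped. Prdx1 (ENSMUSG00000028691.12, chromosome 4, 116685544 to 116700822) was at 240, 387 and 339 CPM in the control libraries and at 335, 762, 339 and 870 CPM in EPS replicates 1 to 4. EPS replicates 2 and 4 were far above all control libraries, and EPS replicates 1 and 3 lay among them. The log2FC of 0.73 had a 95% interval of -0.15 to 1.61 (limma adjusted p = 0.511, exact permutation p = 0.257). It was 0.48 without EPS replicate 4 and 0.94 without EPS replicate 1, and Prdx1 was the member that passed an unadjusted P under 0.05 in edgeR and DESeq2 but not in limma (adjusted p = 0.340 in edgeR and 0.308 in DESeq2). Prdx2 (ENSMUSG00000005161.15, chromosome 8, 84969587 to 84974834) was at 394, 490 and 396 CPM in the control and at 573, 706, 437 and 661 CPM in the EPS group. Only EPS replicate 3 was below the highest control library. Its log2FC was 0.46, with a 95% interval of -0.05 to 0.97 (limma adjusted p = 0.473, exact permutation p = 0.0857). The exons of Prdx2 share 173 bases with those of Junb and 177 with those of Rnaseh2a on the opposite strand. Junb, an early response gene, was at 697 CPM in control replicate 4 and at 181 to 289 CPM in the other 6 libraries. How reads in the shared bases were assigned was not tested.

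Promoter sequence for 8 of the members was taken from RefSeq (GRCm38.p6), from 250 bases before the start site to 50 after it. Prdx6 and Sod3 had no entry. Both strands were searched for TGACNNNGC, the core of the antioxidant response element to which NRF2 binds. Prdx1 and Sod1 each had 1 match and the other 6 had none, while 12.4% of 32851 promoters of the same length had at least 1. The window around each match is shown because these are the only matches in the searched members. Both are on the plus strand, the strand of the gene, at chr4:116685446-116685494 for Prdx1 (match 133 to 125 bases before the start site) and at chr16:90220686-90220734 for Sod1 (match 56 to 48 bases before it). They are written 5′ to 3′, and the capitals mark the match, which appears as the reverse complement of the core.
Prdx1: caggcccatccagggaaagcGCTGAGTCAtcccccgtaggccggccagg
Sod1: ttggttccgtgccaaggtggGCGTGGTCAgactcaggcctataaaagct
The Prdx1 match contains TGAGTCA, which is also the motif of AP-1 factors. A match describes the letters and not binding. Sod1 rose, while Prdx1 was above the control range in EPS replicates 2 and 4 only. Cat, which rose, had no match in its window.

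The mitochondrial enzymes stayed within the spread. Prdx3 (ENSMUSG00000024997.7, chromosome 19, 60864051 to 60874556) was at 69.5, 130 and 127 CPM in the control and at 92.9, 163, 80.7 and 119 CPM in the EPS group. The groups overlapped widely, and the log2FC of 0.07 (95% interval -0.60 to 0.74) had no stable sign: it was -0.04 after median-of-ratios scaling, -0.05 in edgeR and -0.06 in DESeq2, and 0.21 without control replicate 4. Sod2, the manganese enzyme of the mitochondrial matrix (ENSMUSG00000006818.5, chromosome 17, 13006846 to 13040063), was at 68.1, 54.9 and 69.1 CPM in the control and at 64.4, 92.4, 75.8 and 76.0 CPM in the EPS group. Its EPS replicate 1 was below 2 of the control libraries. The log2FC was 0.26 (95% interval -0.11 to 0.63, limma adjusted p = 0.594), so a 2-fold rise lay outside the interval. Of 14 genes that mark mitochondrial content, such as Cs and Tfam, 0 passed P under 0.01 in limma, edgeR or DESeq2, 1 was higher at P under 0.05 in limma, and their median log2FC was 0.11.

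Prdx4, Prdx5 and Sod3 showed no difference between groups that exceeded the spread. Prdx4, the peroxiredoxin of the endoplasmic reticulum (ENSMUSG00000025289.15, chromosome X, 155323918 to 155340754), was at 36, 59.0 and 76.2 CPM in the control and at 50.6, 60.8, 39.1 and 62.6 CPM in the EPS group. Its values in the EPS group all lay inside the control range, whose top was control replicate 4. The log2FC was -0.06 (95% interval -0.67 to 0.55, limma adjusted p = 0.938) and turned to 0.18 without that library, when EPS replicates 2 and 4 lay above the remaining controls. Without control replicate 1 it was -0.35. Sod3, the secreted enzyme (ENSMUSG00000072941.5, chromosome 5, 52363791 to 52371418), was at 87.9, 196 and 101 CPM in the control and at 133, 131, 75.9 and 153 CPM in the EPS group. Control replicate 3 was the highest library and EPS replicate 3 the lowest. The log2FC was -0.01 (95% interval -0.74 to 0.71, limma adjusted p = 0.986), and it became 0.33 without control replicate 3 and -0.24 without control replicate 1.

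Prdx5, which reduces peroxides in mitochondria, peroxisomes and the cytosol (ENSMUSG00000024953.17, chromosome 19, 6906697 to 6910106), depended on 1 library. It was at 93.5, 87.4 and 252 CPM in control replicates 1, 3 and 4, and at 123, 135, 107 and 126 CPM in the EPS group. Every EPS library was above control replicates 1 and 3 and below control replicate 4. The log2FC was -0.06 (95% interval -0.82 to 0.71, limma adjusted p = 0.952) and became 0.43 without control replicate 4 (limma adjusted p = 0.320). Prdx5 shares 409 exon bases with Trmt112 on the opposite strand, and Trmt112 was at 37.4 CPM in control replicate 4 and at 31.1 and 31.9 CPM in the other control libraries. In EPS replicates 1 to 4 it was at 49.0, 58.3, 39.3 and 54.4 CPM, above the whole control group, and its part in the Prdx5 values was not tested.

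Because members differ in length, their levels were compared as CPM per kb of exon sequence in GENCODE M21. In the control group Prdx2 was the highest at 140 ± 18 (SD, n = 3), above every value of the next gene, Prdx1, at 106 ± 24.7 (SD, n = 3). From Prdx1 down to Cat, at 24 ± 8.54 (SD, n = 3), the range of each gene overlapped that of its neighbour. Sod2 was the lowest at 6.40 ± 0.788 (SD, n = 3), below all values of the other genes. On the same scale, Prdx2, Prdx1 and Prdx3 took the first 3 places in the EPS group as well. Prdx6 was at 69.6 ± 22.7 (SD, n = 4), at place 4 instead of place 7, and Cat was at 52.6 ± 17.0 (SD, n = 4), at place 7 instead of place 9. The neighbours in the EPS order overlapped, except that Prdx4 was above Sod2, the lowest. This scale depends on which exons are summed: Sod1 has 3970 bases of exons over all transcripts, but its coding transcript in the basic annotation has 641. By the median length of coding transcripts, Sod1 was at 186 CPM per kb in the control and at 428 CPM per kb in the EPS group, at places 4 and 1. By this length Prdx3 was at places 6 and 7, Prdx6 at places 5 and 4 and Cat at places 8 and 6, while Sod2 stayed the lowest at 10.9 and 13.2 CPM per kb.

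**Figure D3:**
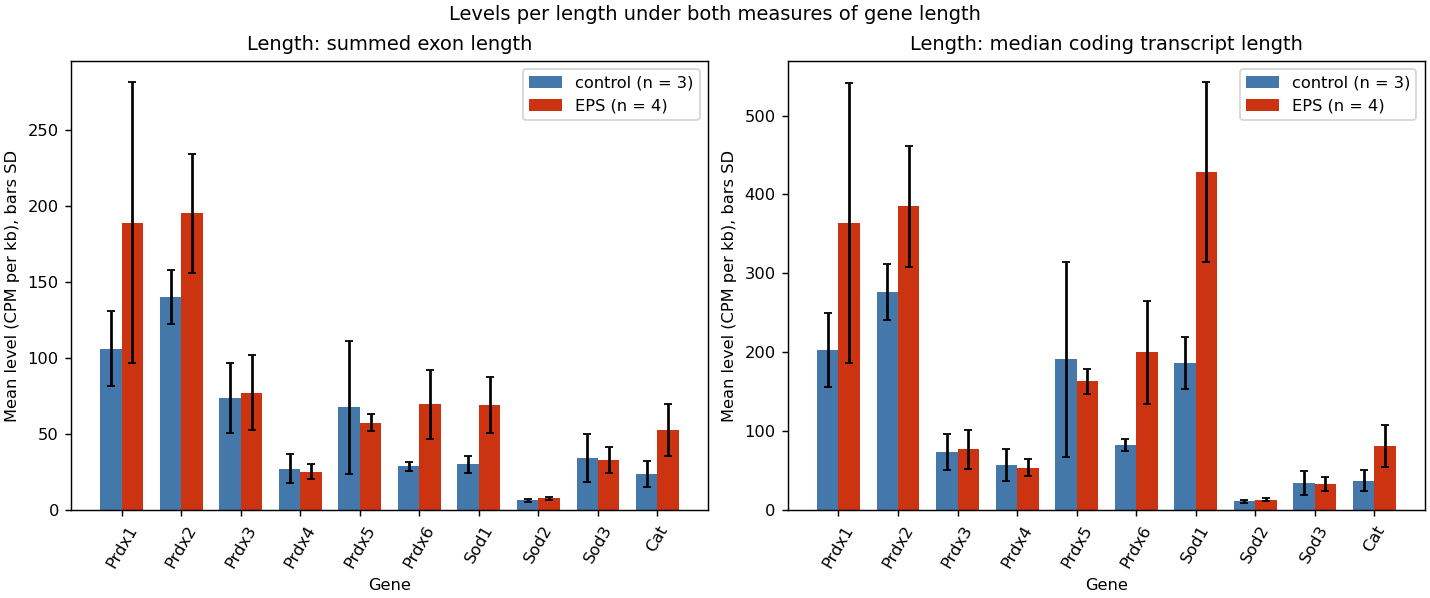
Mean level per kb in the control (blue, n = 3) and EPS (red, n = 4) groups, with SD as error bars, by summed exon length on the left and by median coding transcript length on the right. Prdx2 leads the control group and Sod2 is the lowest in both panels, and Sod1 moves most between the panels.

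Ratios between genes of the same library do not change when all its values are multiplied by a single factor. Quantile normalization is not of that kind and can move them. The 8 pairs were chosen after the values had been seen, and set Sod1 against the other dismutases and its copper chaperone Ccs, and Prdx6 against the other peroxiredoxins. The ratio of Sod1 to Sod2 reads was 1.47 to 2.11 in the control and 2.69 to 4.72 in the EPS group, and that of Sod1 to Sod3 was 0.591 to 1.40 and 1.68 to 2.69. Neither pair overlapped between groups. As the pairs were picked for their values, their differences are given as a description, with no test. Sod1 made up 31.6% to 45.5% of the reads of the 3 dismutases in the control libraries and 53.0% to 61.1% in the EPS libraries. The ratios of Prdx6 to Prdx3, Prdx4 and Prdx5 were also higher in every EPS library, with mean log2 differences of 1.15, 1.28 and 1.28. The last became 0.77 without control replicate 4. The ratio of Prdx6 to Prdx2 was higher in every EPS library too, by 0.76 on the log2 scale. Against Prdx1 the groups overlapped, at a log2 difference of 0.49. The ratio of Sod1 to Ccs was 4.78, 6.18 and 17.2 in control replicates 1, 3 and 4 and 8.92 to 13.3 in the EPS group, a log2 difference of 0.41. The groups overlapped through control replicate 4, and without it the EPS libraries were all above and the difference was 0.97.

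**Figure D4:**
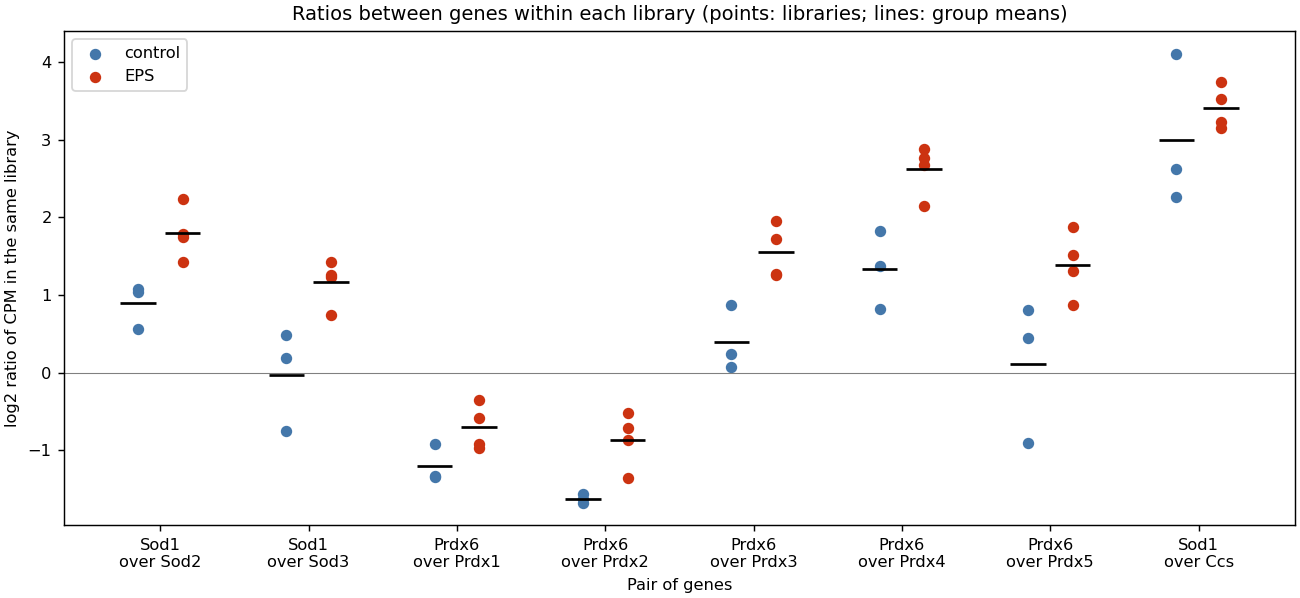
Log2 ratio of the CPM of both genes of a pair in the same library (vertical axis) for control (blue) and EPS (red) libraries, with a line at each group mean. The red points lie above all blue points for Sod1 over Sod2 or Sod3 and for Prdx6 over Prdx2, Prdx3, Prdx4 or Prdx5, and overlap them for Prdx6 over Prdx1 and Sod1 over Ccs.

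The EPS libraries differed among themselves. In 9 of the 10 members, all but Sod3, EPS replicates 2 and 4 were the highest pair of the group. The share over all genes is not given, so this count does not set the members apart from other genes. Cs, a mitochondrial gene that did not pass, had the same pair on top (337, 407, 312 and 364 CPM in EPS replicates 1 to 4). The spread was widest for Prdx1, with a coefficient of variation of 48.6%, and narrowest for Prdx5, at 9.46%. Summed over the 10 genes, the level was 1274, 1760 and 1679 CPM in the control libraries and 1905, 2908, 1740 and 3074 CPM in EPS replicates 1 to 4, so that EPS replicate 3 lay inside the control range. The summed level of 17 known NRF2 targets, none of them a member, had the same leading pair. It was 4623, 6899, 4995 and 8875 CPM in EPS replicates 1 to 4 and 2124 to 2211 CPM in the control. Fth1 alone was at 3920 CPM in EPS replicate 2. The pair also led the sums of other lists described here. These were mitochondrial content (4423, 4752, 4026 and 4905 CPM), peroxisome assembly (494, 652, 487 and 546 CPM), and glutathione peroxidases (610, 776, 530 and 635 CPM). It did not lead the sums of oxidant sources or redox transcription factors. The shared pair is therefore not particular to the members and NRF2 targets. Within the EPS group, myotube markers were lowest in EPS replicates 2 and 4 (10295 and 8834 CPM). The 6 myoblast and cycling markers summed to 691, 333, 470 and 925 CPM in EPS replicates 1 to 4, against 218 to 313 CPM in the control. None of these 6 passed P under 0.01 in limma, 4 were higher at P under 0.05, and 4 in edgeR and 2 in DESeq2 were higher at P under 0.01. The part of NRF2 activity or of differences in cell state in the members' levels was not tested. In bulk RNA, more cells of a kind and more RNA per cell cannot be told apart.

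The genes that recycle and repair peroxiredoxins were examined as a list of 16. Of these 3 rose, 0 fell and the median log2FC was 0.27. At P under 0.01, 5 were higher in edgeR and 4 in DESeq2, and 0 were lower in either. At P under 0.05 in limma, 7 were higher and 0 lower. The lead genes were Srxn1, the sulfiredoxin that repairs overoxidized peroxiredoxins, Txnrd1, the cytosolic thioredoxin reductase, and Gstp1, the glutathione transferase that can recharge Prdx6. Txnrd1 was at 143, 141 and 108 CPM in the control and at 291, 396, 307 and 591 CPM in the EPS group, a log2FC of 1.55 (limma adjusted p = 0.0712). Srxn1 was at 20.5, 26.7 and 33.8 CPM in the control and at 59.3, 62.0, 57.5 and 189 CPM in the EPS group. Its log2FC of 1.55 (limma adjusted p = 0.185) became 1.14 without EPS replicate 4. Gstp1 was at 85.4, 73.5 and 134 CPM in the control and at 176, 207, 159 and 306 CPM in the EPS group, which did not overlap, at a log2FC of 1.11 (limma adjusted p = 0.160). Thioredoxin itself, Txn1, was at 150, 237 and 165 CPM in the control and at 262, 472, 226 and 516 CPM in the EPS group, a log2FC of 0.94 that did not pass (limma adjusted p = 0.297). The mitochondrial partners Txn2 and Txnrd2 had log2FC values of 0.11 and 0.00.

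Of 8 glutathione peroxidases, 5 were tested and 0 passed P under 0.01 in limma. 1 was lower at P under 0.05, and that gene, Gpx3, with a log2FC of -0.95, passed P under 0.01 in edgeR and DESeq2. Gpx1, the cytosolic enzyme, had a log2FC of 0.18, which was 0.36 without control replicate 4 and -0.02 without control replicate 1. Of 18 genes whose products make superoxide or hydrogen peroxide, 16 were tested. In limma 2 passed P under 0.01 with a higher level and 0 with a lower level. Xdh had the largest log2FC of the list, 1.54, but did not pass (limma adjusted p = 0.243). It was at 17.7, 6.20 and 9.99 CPM in the control and at 17.9, 39.3, 67.8 and 22.0 CPM in the EPS group. In edgeR and in DESeq2, 1 gene of the list was higher at P under 0.01, and it was not Maoa. Maoa, a mitochondrial amine oxidase, rose in limma. It was at 82.7, 101 and 66.2 CPM in the control and at 110, 130, 114 and 144 CPM in the EPS group, a log2FC of 0.59 that passed in 3 of 16 alternative fits. Of 8 genes of copper and manganese delivery, 0 passed, 1 was higher at P under 0.05 in limma, and none passed P under 0.01 in edgeR or DESeq2. That gene was Ccs, which loads copper into Sod1, at a log2FC of 0.72 with control replicate 4 and 0.33 without it. It was at 8.23 CPM in control replicate 4 while control replicates 3 and 1 had 18.7 and 20.9 CPM. Of 17 peroxisome assembly genes, 0 passed P under 0.01 in any of the 3 tools and 0 passed P under 0.05 in limma, with a median log2FC of 0.05.

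Of the 17 NRF2 targets, 11 rose and 0 fell, with a median log2FC of 1.16. Srxn1, Txnrd1 and Gsr are in this list and in that of peroxiredoxin recycling. In limma 2 targets, Nqo1 and Hmox1, had an adjusted p under 0.05, which 0.141% of all genes met there. The counts were 9 in edgeR and 10 in DESeq2, for which no share over all genes is given. The largest changes were those of Nqo1, Hmox1 and Gclm, with log2FC values of 4.51, 2.71 and 1.93. The changes of Prdx6, Sod1 and Cat were near the median of this list, and the list was chosen with results of these libraries known. Of 15 redox transcription factors and coactivators, 0 passed P under 0.01 in limma (2 higher and 1 lower at P under 0.05; 1 lower in edgeR and 1 in DESeq2 at P under 0.01). Nfe2l2, which encodes NRF2, was at 113, 178 and 81.5 CPM in the control and at 104, 208, 116 and 167 CPM in the EPS group, a log2FC of 0.28 that became 0.02 without control replicate 4 and 0.57 without control replicate 3. Keap1, whose product holds NRF2 in check, had a log2FC of 0.26, which became 0.39 and 0.02 without control replicates 4 and 3, respectively.

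**Figure D5:**
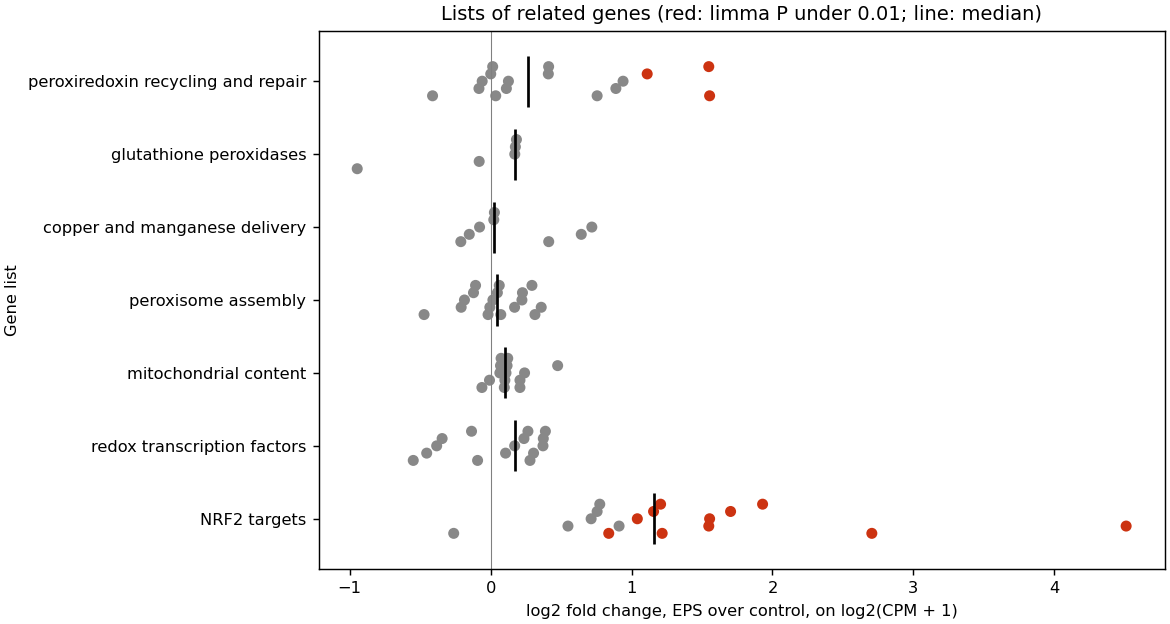
Log2 fold change of the tested genes of 7 lists (points), with red for limma P under 0.01 and a black line at the list's median. Red points fill most of the NRF2 row and include 3 genes of peroxiredoxin recycling.

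The genes most like Sod1 were sought among 12256 genes with a mean of at least 1 CPM, by the root mean square difference of log2(CPM + 1) around each gene's mean over the 7 libraries. The nearest were Car8, Ephx1, Ethe1, Osgin1 and Ftl1, with differences of 0.07, 0.09, 0.13, 0.15 and 0.15. For Prdx4, the member with the lowest P among those with a negative change, they were Lfng, Rab5c, Tor2a, Arl6ip6 and Cdk4, with differences of 0.06 to 0.09. These are descriptions over 7 libraries.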

How the data were processed

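RNA-seq was done on 3 control and 4 EPS libraries of C2C12 myotubes. Directional libraries of poly(A) RNA were read from both ends, 100 bp each. Mapping by the authors used STAR 2.5.4b and GRCm38, per the submitters' processing notes and methods, and they deposited CPM, not log-transformed, for 26607 symbols per library. The read counter, annotation, strand setting and treatment of multi-mapped reads are not given in the sources used here. With the value of 1 read as the step, 100% of values came out whole (tolerance 0.01), so reads were recovered. The limit of 3 reads covers counting error only, while the 95% intervals are from limma and measure the spread between libraries.

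Log2(CPM + 1) of the 19144 genes above 0 in at least 1 library was fitted with limma 3.58.1 in R 4.3.3 (mean-variance trend, two-sided, no covariate), with Benjamini-Hochberg adjustment over all of them. A gene rose or fell at P under 0.01. Single values had an exact permutation test, two-sided, of the mean difference over the 35 ways to choose the EPS libraries. The paper's methods use edgeR on counts. edgeR 4.0.16 and DESeq2 1.42.0 on recovered reads were alternatives, as were limma with a replicate block, a robust prior, quantile or median-of-ratios scaling, only genes at a mean of 1 CPM or more, a pseudocount of 0.5 or 0.1, and each library left out. Ratios within a library were also computed without control replicate 4, a choice made after seeing the data. The named genes are the members, and from each list up to 3 genes per direction at P under 0.01 plus Txn1, Txnrd1, Srxn1, Ccs, Gpx1, Nfe2l2 and Keap1. Txn2, Txnrd2, Gpx3, Xdh and the overlapping genes were added after their values were seen. A result that the rule would name is not reported here. The members and lists were chosen with earlier results of these data known. Symbols and positions are those of GENCODE M21 (GRCm38), and 4 list genes were matched through older symbols. The annotation the authors used is not known.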

Additional observations from a re-analysis of the deposited data

Results flagged for a closer look

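Among the members and the other named genes, 1 value stood far from the rest of its group. Srxn1 was at 189 CPM in EPS replicate 4, while the other EPS libraries were at 57.5 to 62.0 CPM, so that the gap made up 0.966 of the range of the group, above Dixon's 95% critical value for 4 libraries. Chance flags about 1 in 20 groups. Control groups of 3 were not examined in this way, which leaves out the Prdx5 value of 252 CPM in control replicate 4.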

How the results depend on the processing

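Prdx6 and Sod1 passed P under 0.01 and 2-fold in all 16 alternative fits, with log2 fold changes of 1.04 to 1.39 and 1.03 to 1.3 and adjusted p of 0.00095 to 0.232 and 0.00123 to 0.223. Their adjusted p was under 0.05 with a minimum mean of 1 CPM, in edgeR and in DESeq2. Cat passed P under 0.01 in 11 of the 16, with log2 fold changes of 0.87 to 1.38 and adjusted p of 0.0295 to 0.390. The count of members that rose was therefore 3 as reported and 2 in 5 alternatives, and 0 members fell in any. The other 7 members passed P under 0.01 in none. The sign of Prdx3, Prdx4, Prdx5 and Sod3 changed with 1 or more of the alternatives. The number of all genes past P under 0.01 and 2-fold with a higher level, 185, became 445 with a pseudocount of 0.1, 329 in edgeR and 317 in DESeq2. Quantile and median-of-ratios scaling brought the median log2 fold change of genes at 1 CPM or more from 0.10 to within 0.01 of 0, and Prdx6, Sod1 and Cat to 1.16, 1.10 and 1.06 with quantile normalization. Outside the members, Maoa missed P under 0.01 in most alternatives, Srxn1 and Gstp1 without control replicate 1 or 3, and Txn1 passed in 5 of 16. With the replicate block, which rests on 3 pairs, Prdx6 was 1.13, Sod1 1.10 and Cat 1.03, and 598 of all genes passed P under 0.01. That fit also lacks EPS replicate 2, which has no control of its number, and the same libraries without the block gave 665, against 798 with all 7. The labels do not say whether equal numbers pair the libraries. Deviations of same-numbered libraries correlated at 0.245, -0.447 and 0.068 over genes. Libraries of different number were not compared, so these values do not settle the pairing. The causes were not tested.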
